A study of Homo sapiens with 11 samples.

Results

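The response of human breast cancer cells to apigenin alone was taken from 5 of the 11 arrays of the series, the 2 arrays of cells given apigenin and the 3 arrays of untreated controls. The cells were MDA-MB-468, an established triple-negative breast cancer line that came from a pleural effusion. Apigenin-treated cells received 40 µM apigenin for 24 h, and control cells received nothing, with no vehicle control named in the labels. The other 6 arrays came from cells given tumour necrosis factor (TNF, 40 ng/ml) together with 40 µM apigenin (3 arrays) and from cells given TNF alone (3 arrays), both for 24 h. They entered the fit, and the apigenin change in the presence of TNF was read from them. Cells were washed in Hanks' balanced salt solution and frozen, and TRIzol-purified total RNA was hybridised to whole-transcript gene arrays. The sample titles speak of triplicates, but 2 apigenin arrays were analysed here. The labels do not say whether replicates were separate cultures, so p-values reflect the spread among these arrays alone, and that spread may be technical.

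Apigenin is a flavone made by plants such as parsley and celery. Flavones can bind the aryl hydrocarbon receptor, a ligand-activated transcription factor that moves to the nucleus on binding and switches on cytochrome P450 genes of family CYP1. Apigenin is also known as an inhibitor of protein kinases such as casein kinase 2 and, in many cultured lines, as an agent that slows cells at the passage from G2 into mitosis. Triple-negative cells lack estrogen and progesterone receptors and ERBB2 amplification, and this line carries many copies of the EGFR gene.

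Levels are log2 values after quantile normalization, and a change is a difference of such levels, apigenin minus control. Where a gene's mean in either group was under 3.53, which is 1 log2 unit over the median of all probe set means, it is called near background and its change is given without a fold. Of 15832 genes tested, 595 (3.76%) were called at an adjusted p under 0.05 by limma, 146 higher (0.922%) and 449 lower (2.84%) in apigenin-treated cells. The lower genes reached larger sizes, with 148 at a log2 change of -1 or less, against 31 at 1 or more. The counts of called list members given below stand beside these shares of 0.922% higher and 2.84% lower. They are a description only, since list members were chosen with earlier results of these data known. Higher calls had a median log2 change of 0.80 and lower calls one of -0.86, against -0.03 over all genes tested. At an unadjusted p under 0.05 there were 3092 genes (19.5%), 7.38% higher and 12.2% lower. The apigenin and control arrays did not overlap in any called gene, and they did not overlap in 34.6% of all genes tested. In RNA from whole cultures, fewer cells of a kind and less RNA per cell cannot be told apart.

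Array apigenin 1 was dimmer than the rest as deposited. Over the tested genes it had a median of 3.90 and an interquartile range of 2.40, and apigenin 2 had 4.16 and 2.70, against medians of 4.11 to 4.31 and ranges of 2.66 to 2.90 on the control arrays. After quantile normalization all 11 medians lay between 4.15 and 4.24. The balance of directions moved with the scaling, while lower calls stayed the majority. As deposited, 35 genes were higher and 546 lower, so that 94% of calls were lower, against 75.5% after quantile normalization, and the median change over all genes was -0.18. Under that scaling, higher calls in the gene lists used below remained only among aryl hydrocarbon receptor targets, long non-coding RNAs and olfactory receptors. MT1F, described below, was among the genes no longer called (limma adjusted p = 0.0696). A shift of each array to a common median over all probe sets left 38 higher and 691 lower calls (94.8% lower), and a shift over the tested genes gave 159 and 356 (69.1% lower). It also moved at the same scaling, since array weights gave 30 and 210 (87.5% lower). With 1 array left out, 66 genes were higher and 207 lower in the fit that lacked apigenin 1, and 149 and 287 in that lacking apigenin 2. Lacking control 1 they were 43 and 180, lacking control 2 they were 61 and 296, and lacking control 3 they were 69 and 235. Without TNF plus apigenin 2 and 3, 87 and 95 genes were higher. A fit of the 5 arrays alone called 5 higher and 47 lower. Without apigenin 1 all 588 called genes that could still be fitted kept their direction. That was nearly fixed in advance, since the apigenin and control arrays overlapped in no called gene, so it is no check. Of the 595 calls, 102 held in each of the 11 fits that left out 1 array. These fits are also less precise than that with all arrays, so a call can be lost while its change stays. Below, a call is said to be held where it passed in all 11 of these fits. Otherwise the apigenin and control arrays without which it was lost are named beside a single gene, a group of calls has the number that passed, and "p up to" gives the highest adjusted p over the fits. Leaving out 1 of the 6 arrays of TNF-treated cells, which enter through the quantile normalization, the shared variance and the filter, ended between 10 and 31 of the 128 calls among the named genes.

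**Figure D1:**
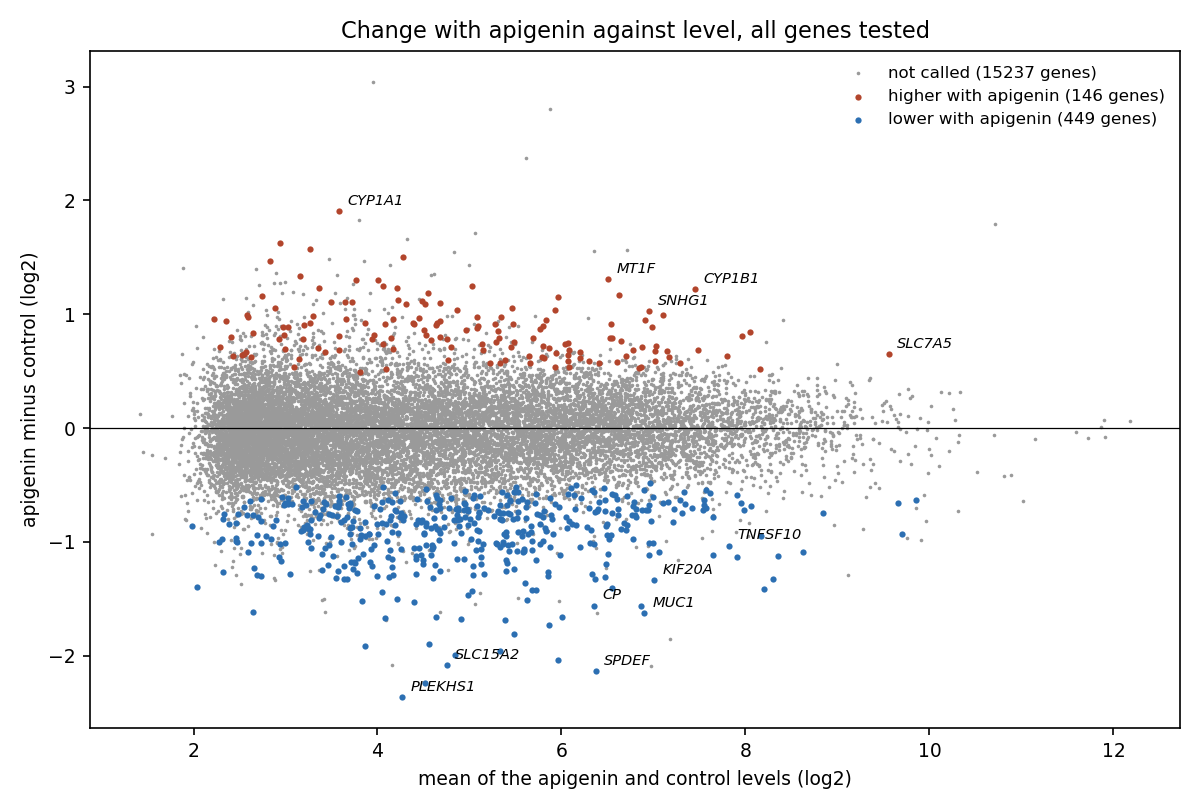
The log2 change (apigenin minus control, vertical axis) is plotted against the mean of the apigenin and control levels (log2, horizontal axis) for each of the 15832 genes tested, with called genes coloured by direction. The 449 lower calls extend to -2.36 and the 146 higher calls to 1.91.

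**Figure D2:**
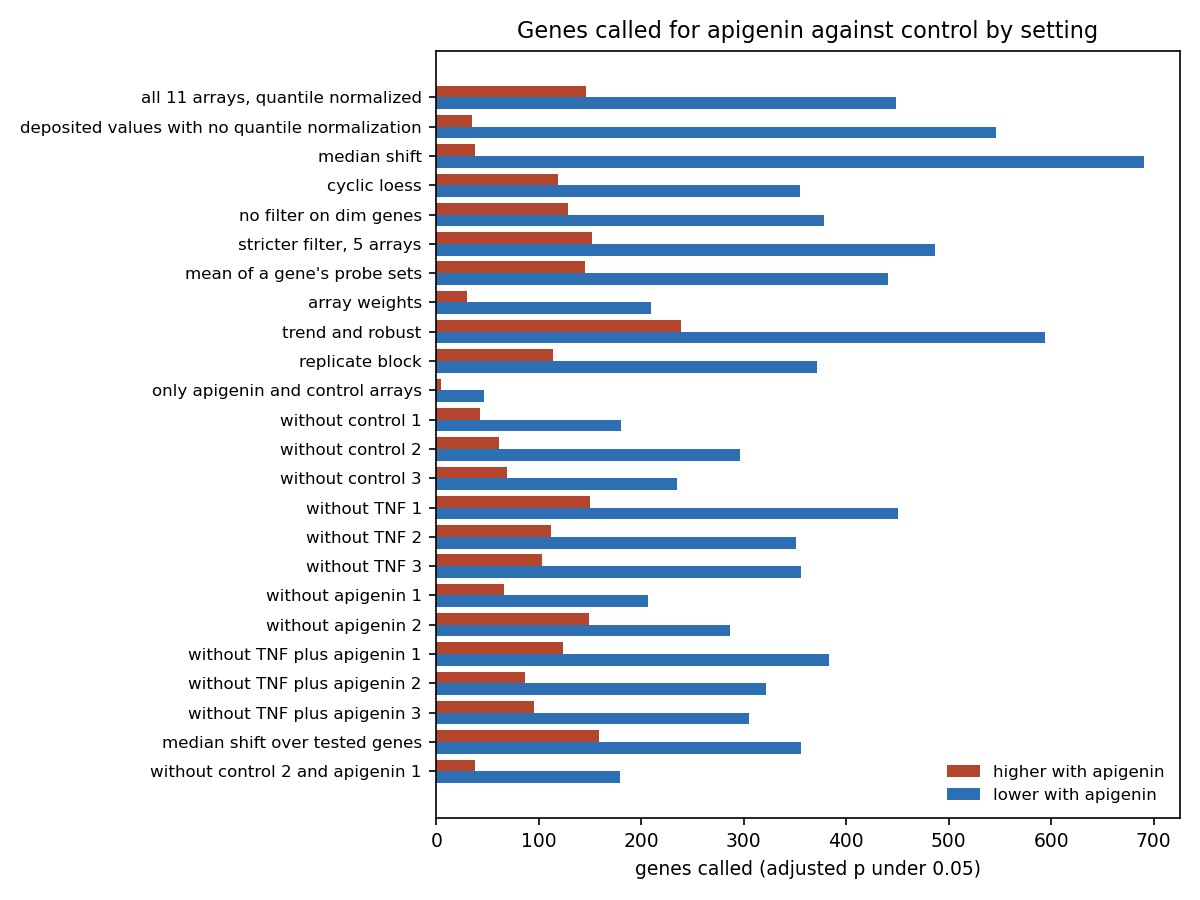
Bars give the number of genes called higher and lower (horizontal axis) under each setting of the processing and with each array left out (vertical axis). The bars for higher genes range between 5, in the fit of 5 arrays alone, and 239, with a trended and robust prior variance.

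Among targets of the aryl hydrocarbon receptor, 2 of 8 tested genes rose (25%, beside 0.922% higher among all genes) and none fell. CYP1A1, the P450 whose induction is the usual readout of this receptor, had the largest rise of all called genes. Its level was 4.95 and 4.11 on the apigenin arrays, against 2.83, 2.69 and 2.35 on the control arrays. Every apigenin value stood above every control value, and the control mean lay near background, so no fold is given for the log2 change of 1.91 ± 0.26 (SE, limma adjusted p = 0.00368). CYP1B1, which hydroxylates estrogens and polycyclic hydrocarbons and is the family member common in breast tissue, was at 8.25 and 7.88 in apigenin-treated cells, against 6.92, 6.77 and 6.83 in control cells. The groups were well apart, and the log2 change was 1.22 ± 0.16 (adjusted p = 0.00313), 2.33-fold higher. Both calls held in each fit with 1 array left out.

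The other 6 tested targets were not called. CYP1A2, a mainly hepatic member of the family, was near background in all 5 arrays and had a log2 change of -0.33 (adjusted p = 0.342). TIPARP, an ADP-ribosyltransferase that restrains the receptor, had 0.37 (adjusted p = 0.219). NQO1, a quinone reductase that also answers to NRF2, had 0.01 (adjusted p = 0.98). The receptor itself, AHR, lay at 9.67 and 9.96 in apigenin-treated cells, against 9.56, 9.35 and 9.63 in control cells, a difference of 0.30 that missed the threshold (adjusted p = 0.371). The median of the 8 targets was 0.07, and it was -0.05 with the deposited scaling, against -0.18 over all genes. None of 6 genes of the receptor's machinery was called by limma (2 at an unadjusted p under 0.05), with the coactivator NCOA2 at -0.66 (adjusted p = 0.0664). Of 20 conjugating enzymes none was called (6 at an unadjusted p under 0.05), and of 17 ABC transporters 1 fell, ABCA12, a lipid transporter of keratinocytes, by 0.94 (adjusted p = 0.0143, lost without apigenin 2 or control 1, p up to 0.0702).

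The core of the receptor's binding site is GCGTG. It occurs, on either strand, in 36.3% of the 27305 human promoters of the RefSeq table (GRCh38.p14, 250 bases before to 50 after each start) and in 47.8% of those of tested genes, so a match is common. The promoter of CYP1A1 holds 1 match, at positions -57 to -53 from the start. It is shown because this gene rose most: the 150 bases before the start, chr15:74725529-74725678 on the minus strand, with the match in capitals.
CYP1A1: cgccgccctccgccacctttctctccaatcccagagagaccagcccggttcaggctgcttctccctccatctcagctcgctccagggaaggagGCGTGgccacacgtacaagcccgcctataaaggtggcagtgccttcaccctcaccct
Of called higher genes with a promoter in the table, 59 of 105 (56.2%) held the core, and of called lower genes 135 of 356 (37.9%). These shares are a description of letters and say nothing of binding.

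Of the 15 largest decreases, 3 were in the lists of luminal factors, secretory proteins and mucins (PLEKHS1, SPDEF and CLCA2). SPDEF, an ETS-family factor that drives secretory differentiation in airway, gut and breast, was at 5.73 and 4.87 in apigenin-treated cells, against 7.60, 7.45 and 7.27 in control cells. The lowest control array stood above both apigenin arrays by more than the spread within either group. SPDEF fell by 2.14 ± 0.21 (adjusted p = 0.00103), a 4.39-fold lower level. PLEKHS1, a protein with a pleckstrin homology domain, was at 2.98 and 3.19, against 5.47, 5.32 and 5.56 in control cells, and changed by -2.36 ± 0.23 (adjusted p = 0.000859). Its apigenin values were near background.

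MUC1, the transmembrane mucin that coats the apical face of luminal cells, had levels of 6.19 and 5.98 with apigenin, against 7.84, 7.69 and 7.60 without. It was 3.09-fold lower (log2 change -1.63 ± 0.19, adjusted p = 0.00221). Of 9 tested mucins it was the only one called. EHF, another ETS factor of epithelial cells, was at 6.60 and 6.39, against 7.50, 7.47 and 7.55 in control cells, and fell by 1.01 ± 0.13 (adjusted p = 0.0024). MYB, a transcription factor of progenitor and luminal cells, was 2.38-fold lower (adjusted p = 0.00221), and CREB3L4, a membrane-bound factor of secretory cells, 2.10-fold lower (adjusted p = 0.014). The calls for SPDEF, PLEKHS1, MUC1, EHF and MYB held, while that of CREB3L4 was lost without apigenin 1 or 2, p up to 0.0572.

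Of the secretory proteins, CLCA2, a regulator of chloride conductance, was 3.33-fold lower (log2 change -1.73, adjusted p = 0.00221, held), with 5.32 and 4.67, against 6.76, 6.75 and 6.68 in control cells. SCGB2A2, which encodes mammaglobin A, was 2.17-fold lower (adjusted p = 0.0271, lost without apigenin 2 or control 1 or 3, p up to 0.127). AGR2, a disulfide isomerase of secretory cells, changed by -0.80 near background (adjusted p = 0.0284, lost without any of the 5 but control 2, p up to 0.114). In the 3 lists of luminal factors, secretory proteins and mucins together, 9 of 47 tested genes fell and none rose, with a median of -0.26. The lower share was 19.15%, beside 2.84% among all genes. PLEKHS1 was counted there with the secretory proteins, although it is described above only by its pleckstrin homology domain. Of these 9 calls, 6 held in every fit with 1 array left out. ESR1, the estrogen receptor gene, was near background in all 5 arrays and was not called (-0.25, adjusted p = 0.595).

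**Figure D3:**
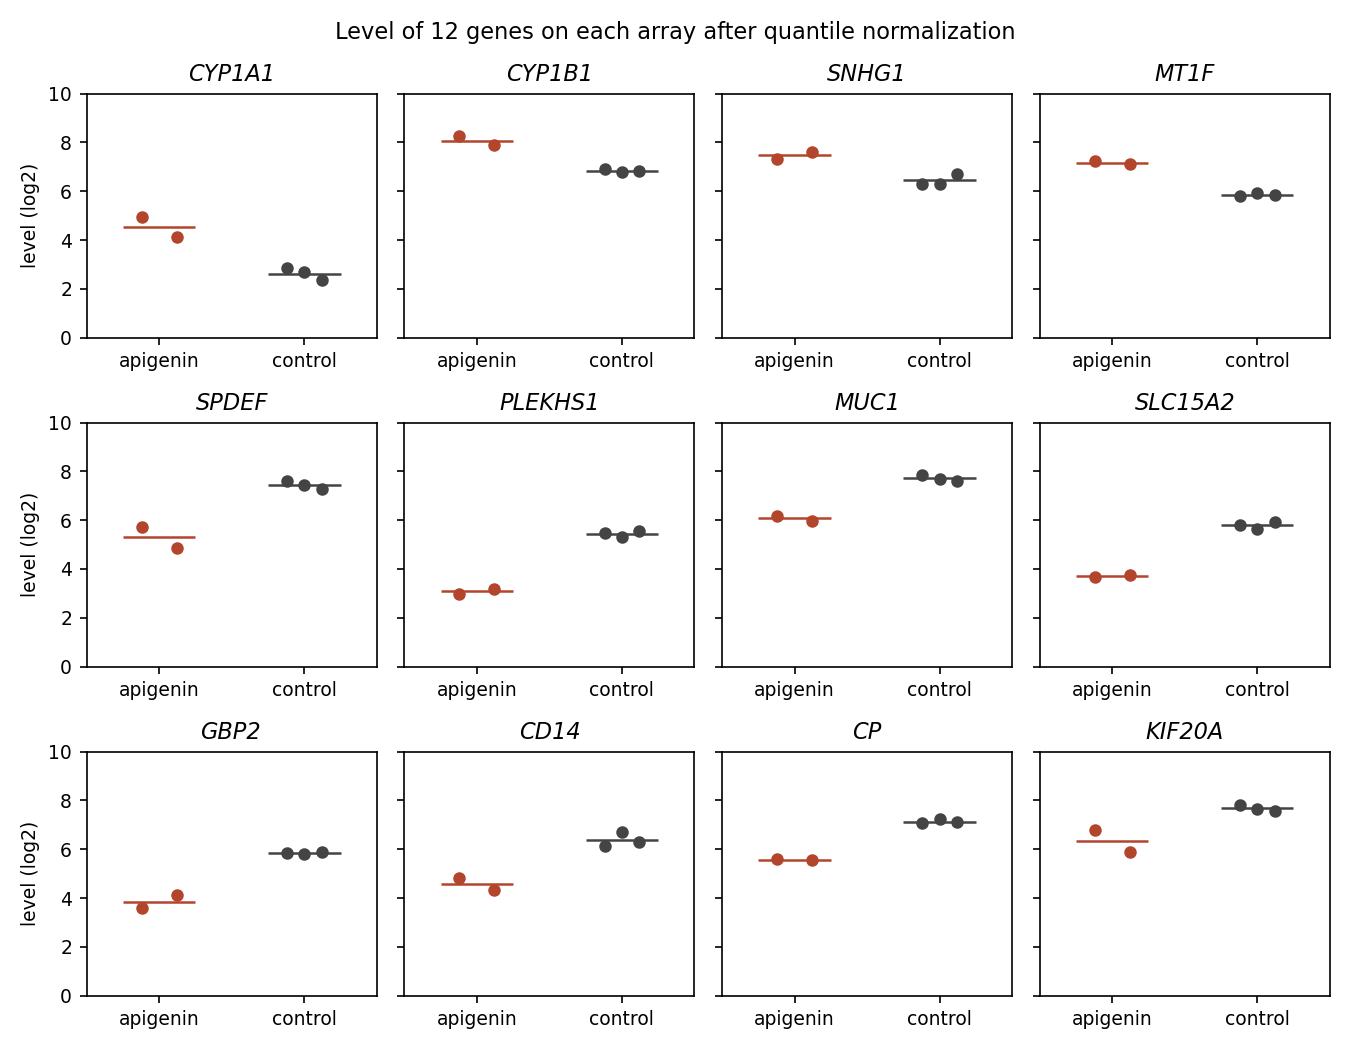
Each panel gives the level of 1 gene (log2, vertical axis) on the 2 apigenin arrays (left, red) and the 3 control arrays (right, grey), with lines at the group means. The groups do not overlap in any of the 12 panels, which holds for every called gene and for 34.6% of all genes tested. CYP1A1, CYP1B1, SNHG1 and MT1F are higher with apigenin and the other 8 genes are lower.

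Calls were also found among S100 and keratin genes. Of 15 tested S100 genes, which encode small calcium-binding proteins, 3 fell (20%, beside 2.84% lower among all genes). S100A7A was at 3.77 and 3.02, against 5.54, 5.32 and 6.05 in control cells, a log2 change of -2.24 ± 0.27 (adjusted p = 0.00221) that held. S100A7, or psoriasin, was bright in all 5 arrays, with 9.36 and 9.10 against 10.06, 10.21 and 10.23 in control cells, and was 1.91-fold lower (adjusted p = 0.0145, lost without apigenin 2, p up to 0.0719). S100A8, a subunit of calprotectin, was 2.06-fold lower (adjusted p = 0.0189, lost without apigenin 2 or control 2, p up to 0.0835). Of 11 keratins 3 fell (27.3%). KRT4 changed by -1.29 (adjusted p = 0.021, lost without apigenin 1 or control 1 or 2, p up to 0.122) and KRT23 by -0.78 (adjusted p = 0.0321, lost without any of the 5 but control 2, p up to 0.135). KRT15 changed by -1.06 (adjusted p = 0.0418), was called in 1 of the 11 fits with 1 array left out, and had -0.57 without apigenin 2. KRT5, the basal keratin, was not called (0.17, adjusted p = 0.475), and neither was any of 20 genes of epidermal differentiation (4 at an unadjusted p under 0.05, limma).

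Of 10 tested CYP4 genes, which encode fatty acid hydroxylases, 3 fell (30%, beside 2.84% lower among all genes). CYP4Z1, a member typical of breast tissue, was at 3.56 and 3.66, against 5.48, 5.76 and 5.29 in control cells. The difference of -1.90 ± 0.41 (adjusted p = 0.0309) was 3.73-fold and was called in none of the fits that left out 1 of these 5 arrays. CYP4X1 was 1.65-fold lower (adjusted p = 0.0354, lost without apigenin 2 or control 1 or 2, p up to 0.158). CYP4B1 was 1.99-fold lower (adjusted p = 0.0343, lost without any of the 5 but control 2, p up to 0.137). HSD17B2, which oxidises estradiol to the weaker estrone, changed by -1.67 ± 0.18 (adjusted p = 0.00161). It was at 3.17 and 3.32 with apigenin, against 4.91, 5.28 and 4.56 without, and its call held.

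In the adhesion lists, FN1, which encodes the matrix protein fibronectin, was at 4.77 and 5.16, against 6.33, 6.43 and 6.42 in control cells, 2.69-fold lower (adjusted p = 0.00222, held). LAMB1, a laminin chain, fell by 0.62 (adjusted p = 0.0419, lost without any of the 5, p up to 0.143). They were the 2 called of 28 tested matrix and integrin genes. CLDN23, a claudin, was the 1 call among 19 junction genes (-0.84, adjusted p = 0.0373, lost without any of the 5 but control 3, p up to 0.113), and ADAM8, a membrane metalloproteinase, the 1 call among 19 metalloproteinases and inhibitors (-0.68, adjusted p = 0.021, lost without any of the 5 but control 1, p up to 0.0826).

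After quantile normalization, amino acid and peptide transporters were called in both directions. SLC15A2, the proton-coupled peptide transporter PEPT2, was at 3.66 and 3.76 with apigenin, against 5.81, 5.63 and 5.94 without. This was the smallest adjusted p among the 15 largest decreases (0.000186), with a log2 change of -2.08 ± 0.15, 4.24-fold lower. SLC6A14, a broad importer of neutral and basic amino acids, was at 5.34 and 4.54, against 7.11, 6.75 and 7.08 in control cells, 4.11-fold lower (adjusted p = 0.00254). By contrast SLC3A2, the heavy chain shared by several amino acid exchangers, was at 8.54 and 8.39, against 7.69, 7.60 and 7.59, and rose by 0.84 ± 0.15 (adjusted p = 0.0127). SLC7A5, the light chain LAT1 that pairs with it to import leucine, rose by 0.65 (adjusted p = 0.0329). In all, 2 of 26 tested amino acid and peptide transporters rose and 5 fell (26.9% called, beside 3.76% of all genes). The list median of 0.02 became -0.20 with the deposited scaling, against -0.18 over all genes. Under that scaling 0 members were called higher and 6 lower, so both rises depended on the scaling. The calls of SLC15A2 and SLC6A14 held. That of SLC3A2 was lost without apigenin 1, p up to 0.0706. That of SLC7A5 was lost without any of the 5, p up to 0.116.

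CP, which encodes the copper ferroxidase ceruloplasmin, was at 5.58 and 5.56 in apigenin-treated cells, against 7.05, 7.23 and 7.11 in control cells. It was 2.95-fold lower (log2 change -1.56 ± 0.12, adjusted p = 0.000293, held). TF, which encodes the iron carrier transferrin, was 1.88-fold lower (adjusted p = 0.0112, lost without apigenin 1, p up to 0.0537). They were the only called members of 15 iron-handling genes. PTGES, the inducible prostaglandin E synthase, was at 4.58 and 3.92, against 6.13, 5.47 and 5.54 in control cells, 2.77-fold lower (adjusted p = 0.0125, lost without apigenin 2, p up to 0.0681), and was the 1 call among 13 genes of prostaglandin metabolism. DPYD, which starts the breakdown of uracil and thymine, was 3.22-fold lower (log2 change -1.69 ± 0.18, adjusted p = 0.00151, held), with 4.26 and 4.83, against 6.21, 6.22 and 6.27.

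Genes of mitosis were lower in part. In the 3 lists of mitotic kinesins, of mitotic kinases, cyclins and phosphatases, and of kinetochore, spindle and cytokinesis proteins, 14 of 67 tested genes (20.9%) fell and none rose, beside 2.84% lower among all genes. Their median change was -0.29, and 54 of the 67 were below 0. KIF20A, a kinesin of the central spindle needed for cytokinesis, was at 6.80 and 5.88 in apigenin-treated cells, against 7.82, 7.65 and 7.55 in control cells. The groups did not overlap, although apigenin 1 lay closer to the controls, and the level was 2.52-fold lower (log2 change -1.33 ± 0.22, adjusted p = 0.0108). CENPE, the kinesin that carries chromosomes to the spindle equator, was at 5.79 and 5.83, against 7.04, 6.87 and 6.55, 2.02-fold lower (adjusted p = 0.0172, lost without apigenin 1 or 2 or control 1, p up to 0.0757).

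PLK1, a kinase that acts from mitotic entry to exit, was at 7.23 and 6.90 in apigenin-treated cells, against 7.72, 7.75 and 7.85 in control cells, 1.63-fold lower (adjusted p = 0.0276, lost without any of the 5 but apigenin 1, p up to 0.118). CCNB1, the cyclin that activates CDK1 at mitotic entry, was at 5.89 and 5.69, against 6.39, 6.60 and 6.51, 1.64-fold lower (adjusted p = 0.0207, lost without apigenin 2 or control 2 or 3, p up to 0.0843). The other called members were KIF14, KIF18A, CDC25C, NEK2, AURKA, SPC24, HMMR, CENPF, ASPM and NUSAP1, with log2 changes between -0.86 and -0.57. CDK1 itself (-0.34, adjusted p = 0.217) and the proliferation marker MKI67 (-0.31, adjusted p = 0.278) were not called. Their arrays did not overlap, as in 34.6% of all genes tested. The 14 calls rested on all arrays: 4 passed when apigenin 1 was left out, 4 when apigenin 2 was, and 5, 6 and 5 when control 1, 2 and 3 were left out in turn. KIF20A was the 1 call that held in every such fit, at -0.87 without apigenin 2. KIF14 had -0.53 without apigenin 1, against -0.85 with all arrays. With the deposited scaling all 14 were called lower.

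Many promoters of mitotic genes carry a cell cycle homology region, read by the DREAM and MuvB complexes, near CCAAT boxes bound by NF-Y. The letters TTTGAA or TTCGAA on either strand occur in 16.6% of all promoters of the table and in 11.4% of those of tested genes. They occur in 38 of 55 tested members of the 3 lists with a promoter there (69.1%), and in 7 of the 13 called ones (53.8%). CCAAT occurs in 35.7% of all promoters and in 35.9% of those of tested genes. It occurs in 41 of the 55 members (74.5%) and in 11 of the 13 called ones (84.6%). Of genes of G1/S and DNA replication, 3 of 39 held a cell cycle homology region (7.69%). Shown are the 150 bases before the start of the 3 called members whose match lies closest upstream of it, with the matches in capitals. The intervals are chr5:163460482-163460631 on the plus strand for HMMR, which has 2 adjacent matches, chr16:23678739-23678888 on the plus strand for PLK1, and chr11:28108157-28108306 on the minus strand for KIF18A.
HMMR: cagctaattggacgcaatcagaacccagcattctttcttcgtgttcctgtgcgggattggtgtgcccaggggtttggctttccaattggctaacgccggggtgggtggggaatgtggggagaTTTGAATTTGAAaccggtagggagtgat
PLK1: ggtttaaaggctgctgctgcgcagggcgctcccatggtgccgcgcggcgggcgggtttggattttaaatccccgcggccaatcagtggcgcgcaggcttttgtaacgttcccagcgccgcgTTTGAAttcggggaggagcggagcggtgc
KIF18A: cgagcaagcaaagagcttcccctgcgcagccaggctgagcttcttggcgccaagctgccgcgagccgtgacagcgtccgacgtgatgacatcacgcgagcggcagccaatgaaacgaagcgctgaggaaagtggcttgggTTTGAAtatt

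Of 46 tested genes of G1/S and DNA replication, 2 rose (4.35%, beside 0.922% higher among all genes) and none fell. CCND1, which encodes cyclin D1, was at 5.85 and 5.86, against 5.26, 4.91 and 5.13 in control cells, 1.69-fold higher (adjusted p = 0.0155, lost without apigenin 1 or 2, p up to 0.0618). RFC5, a subunit of the clamp loader, rose by 0.59 (adjusted p = 0.0332, lost without any of the 5, p up to 0.136). The list's median of 0.08 became -0.21 with the deposited scaling, against -0.18 over all genes. Neither CCND1 (limma adjusted p = 0.250) nor RFC5 (0.548) was called under that scaling. No gene of homologous recombination and the Fanconi pathway was called by limma (18 tested, 3 at an unadjusted p under 0.05). No CDK inhibitor or GADD45 gene was called (9 tested, 1 at an unadjusted p under 0.05), with CDKN1A, which encodes p21, at 0.21 (adjusted p = 0.436). The same held for 21 p53-responsive genes (3 at an unadjusted p under 0.05).

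Of 17 tested replication-dependent histone genes 3 fell (17.6%, beside 2.84% lower among all genes). H2BC14 was at 4.51 and 3.10, against 5.17, 5.45 and 5.78 in control cells (log2 change -1.66 ± 0.41, adjusted p = 0.0482). The 2 apigenin arrays differed from each other by more than apigenin 1 differed from the lowest control. The change was -0.95 without apigenin 2, and the call was lost without any of the 5 but apigenin 1, p up to 0.226. H2BC9 changed by -1.19 (adjusted p = 0.0394, lost without any of the 5 but apigenin 2, p up to 0.203) and had -0.66 without apigenin 1. H1-1 changed by -0.72 (adjusted p = 0.0421, lost without any of the 5 but apigenin 1, p up to 0.182). In the lists of cohesin, condensin and the anaphase-promoting complex and of chromatin regulators of mitosis, ANAPC10, TMPO and LMNB1 fell, with log2 changes between -0.71 and -0.55, and none of these calls passed without apigenin 1, apigenin 2 or control 1, with p up to 0.119, 0.138 and 0.128.

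Interferon-stimulated genes had mostly negative changes. Of 41 tested antiviral genes 9 fell (22.0%, beside 2.84% lower among all genes) and none rose, and 40 had a negative change. Their median was -0.47, against -0.03 over all genes. With the deposited scaling it was -0.63, against -0.18 over all genes. IFI44 was at 3.13 and 2.81 in apigenin-treated cells, against 4.42, 4.16 and 4.32 in control cells, a log2 change of -1.33 ± 0.18 (adjusted p = 0.00313). SAMD9, an antiviral restriction factor, was at 4.30 and 4.57, against 5.82, 5.65 and 5.49, 2.32-fold lower (adjusted p = 0.00436). These were the 2 antiviral calls that held. IFITM1, a membrane protein that blocks viral entry, was at 5.24 and 5.23, against 5.79, 6.21 and 6.28, 1.82-fold lower (adjusted p = 0.021, lost without any of the 5 but control 1, p up to 0.0785). IFI44L, XAF1, OAS2, OAS1 and SAMD9L, most of them near background in apigenin-treated cells, had log2 changes between -1.30 and -0.81. Of the 9 calls 5 passed when apigenin 1 was left out, 2 when apigenin 2 was, and 4, 3 and 3 when control 1, 2 and 3 were left out in turn. SAMD9L had -0.44 without apigenin 2, against -0.81 with all arrays.

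Guanylate-binding proteins are GTPases induced by interferon gamma. GBP2 was at 3.58 and 4.12, against 5.85, 5.80 and 5.87 in control cells, 3.97-fold lower (log2 change -1.99 ± 0.16, adjusted p = 0.000293). GBP3 was at 6.13 and 5.78, against 7.04, 6.97 and 7.17, 2.15-fold lower (adjusted p = 0.00306). Both groups of values were clear of each other, and both calls held. The other 2 tested members were not called. IFNGR2, a chain of the interferon gamma receptor, was the 1 call among 20 regulatory factors, receptors and STATs (-0.57, adjusted p = 0.0297, lost without any of the 5, p up to 0.0902). CTSS, a protease that trims the invariant chain of MHC class II, was 2.04-fold lower (adjusted p = 0.0101, held) and was the 1 call among 22 antigen-presentation genes. None of 4 APOBEC3 genes was called by limma, with 1 at an unadjusted p under 0.05.

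The interferon-stimulated response element was searched as GAAA, any 2 bases, GAAA, on either strand. It occurs in 3.65% of all promoters, in 23 of 34 tested antiviral genes with a promoter in the table (67.6%) and in 4 of the 8 called ones. Of all called lower genes 14 of 356 (3.93%) held it. Shown are the 150 bases before the start of those 4, with the match in capitals where it lies inside them: IFI44 at chr1:78649639-78649788 (plus strand, match on the reverse strand), IFI44L at chr1:78620298-78620447 (plus strand), IFITM1 at chr11:313890-314039 (plus strand) and SAMD9 at chr7:93117980-93118129 (minus strand). IFI44L and IFITM1 each have 1 further match that does not lie wholly inside.
IFI44: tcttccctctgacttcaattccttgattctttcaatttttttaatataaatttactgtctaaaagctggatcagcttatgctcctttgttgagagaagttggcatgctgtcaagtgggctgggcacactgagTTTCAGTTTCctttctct
IFI44L: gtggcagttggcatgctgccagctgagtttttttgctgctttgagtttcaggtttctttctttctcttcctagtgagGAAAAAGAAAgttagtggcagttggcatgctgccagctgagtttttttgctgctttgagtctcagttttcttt
IFITM1: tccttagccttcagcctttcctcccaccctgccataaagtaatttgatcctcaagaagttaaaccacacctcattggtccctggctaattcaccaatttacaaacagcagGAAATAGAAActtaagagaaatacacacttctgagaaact
SAMD9: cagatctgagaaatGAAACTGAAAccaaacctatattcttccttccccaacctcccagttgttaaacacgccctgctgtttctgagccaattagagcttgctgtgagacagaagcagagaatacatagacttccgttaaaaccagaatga

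In innate sensing, CD14, the co-receptor of bacterial lipopolysaccharide, was at 4.81 and 4.35, against 6.15, 6.72 and 6.30 in control cells, 3.51-fold lower (adjusted p = 0.00221). TLR3, the endosomal receptor of double-stranded RNA, was 2.24-fold lower (adjusted p = 0.00678). STING1, the adaptor of cytosolic DNA sensing, was 1.65-fold lower (adjusted p = 0.0435, lost without any of the 5 but control 1, p up to 0.166). They were 3 of 20 tested receptors and adaptors (15%, beside 2.84% lower among all genes), and the calls of CD14 and TLR3 held. Among inflammatory lists, 2 of 23 NF-kB targets and inhibitors were called (8.70%), 1 of 17 chemokines (5.88%), 2 of 30 cytokines and receptors (6.67%) and 1 of 11 complement genes (9.09%), beside 3.76% of all genes. CYLD, a deubiquitinase that restrains the pathway, fell by 1.07 (adjusted p = 0.0307, lost without apigenin 1 or control 1 or 3, p up to 0.173). NFKB1, the p105 precursor of p50, fell by 0.52 (adjusted p = 0.0379, lost without any of the 5, p up to 0.107). TNFAIP3, the feedback inhibitor A20, was not called (0.04, adjusted p = 0.904).

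CXCL17 was the 1 of 17 tested chemokines to fall (-1.12, adjusted p = 0.00877, lost without apigenin 1, p up to 0.0577), and CCL2 and CXCL8 were near background and not called. LIF, an IL-6 family cytokine, was at 5.16 and 5.63, against 4.19, 4.81 and 4.60, 1.81-fold higher (adjusted p = 0.0387, lost without apigenin 2 or control 1 or 3, p up to 0.173). TGFB1 was 1.64-fold lower (adjusted p = 0.0488, lost without any of the 5 but control 2, p up to 0.154). CFB, complement factor B, was 1.65-fold lower (adjusted p = 0.0284, lost without any of the 5 but control 3, p up to 0.128) and was the 1 call among 11 complement genes. TNFSF10, which encodes the death ligand TRAIL, was at 7.51 and 7.10, against 8.33, 8.44 and 8.25 in control cells, 2.05-fold lower (adjusted p = 0.00401, held). It was the 1 lower call among 22 death receptors, caspases and inhibitors, and the 1 higher call was TNFRSF21, a death receptor, at 0.54 (adjusted p = 0.0482, lost in all 11 fits, p up to 0.221). No BCL2 family gene was called by limma (17 tested, 4 at an unadjusted p under 0.05).

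Among stress genes, 3 of 33 tested ATF4 and unfolded protein response genes rose (9.09%, beside 0.922% higher among all genes). STC2, a secreted glycoprotein, was at 7.48 and 7.39 with apigenin, against 6.43, 6.68 and 6.52 without, 1.85-fold higher (adjusted p = 0.00717, held). DDIT4, an inhibitor of mTORC1, was at 7.47 and 7.49, against 6.78, 6.71 and 6.93, 1.60-fold higher (adjusted p = 0.0194, lost without apigenin 1 or 2 or control 1, p up to 0.0689). CHAC1, which degrades glutathione, was 1.67-fold higher (adjusted p = 0.0379, lost without any of the 5, p up to 0.119). DDIT3, which encodes CHOP, was near background and not called (-0.08, adjusted p = 0.881). The list's median of 0.14 became -0.09 with the deposited scaling, under which none of the 3 was called and the median over all genes was -0.18.

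HSPB1, the small heat shock protein HSP27, went the other way, with 7.42 and 7.26 in apigenin-treated cells, against 8.25, 8.58 and 8.58 in control cells, 2.19-fold lower (adjusted p = 0.00275, held). HSPA13, a chaperone of the endoplasmic reticulum, was 1.76-fold higher (adjusted p = 0.0144, lost without apigenin 1 or 2 or control 1, p up to 0.0603). HSPA2 changed by -0.92 (adjusted p = 0.0436, lost without apigenin 1 or control 2 or 3, p up to 0.232) and had -0.54 without apigenin 1. MT1F, a metal-binding metallothionein, was at 7.22 and 7.11, against 5.79, 5.91 and 5.86, 2.48-fold higher (adjusted p = 0.0284, lost without any of the 5, p up to 0.118). SLC30A1, a zinc exporter under the same metal-responsive factor, was 1.65-fold higher (adjusted p = 0.0294, lost without any of the 5 but control 1). MT1F and SLC30A1 were the 2 calls among 7 tested members of the metallothionein list (28.6%, beside 0.922% higher among all genes). MT1F was the only metallothionein called. The list's median was 0.18, and no member was called with the deposited scaling. HMOX1, heme oxygenase, was not called (0.02, adjusted p = 0.976), and of 20 NRF2 genes 1 fell, AKR1B10 (-1.04, adjusted p = 0.0312, lost without any of the 5 but apigenin 1, p up to 0.147), with -0.68 without apigenin 2.

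Hosts of small nucleolar RNAs are non-coding transcripts whose introns hold guides of ribosomal RNA modification. Of 10 tested hosts 3 rose (30%, beside 0.922% higher among all genes). SNHG1 was at 7.32 and 7.61, against 6.31, 6.30 and 6.71 in control cells, 2.04-fold higher (adjusted p = 0.00579, held). SNHG5 was 1.73-fold higher (adjusted p = 0.0218, lost without apigenin 1 or control 2, p up to 0.122), and SNHG16 1.63-fold higher (adjusted p = 0.0194, lost without apigenin 1 or control 1 or 3, p up to 0.104). The list's median was 0.32, and it was 0.04 with the deposited scaling, under which no host was called and the median over all genes was -0.18. Of 38 ribosomal protein genes, RPL37 rose by 1.15 (adjusted p = 0.0305, lost without any of the 5 but control 1, p up to 0.122) and RPS3 by 0.57 (adjusted p = 0.0312, lost without any of the 5, p up to 0.11). The median of this list, 0.20, and that of 25 ribosome biogenesis genes, 0.20, became -0.06 and -0.05 with the deposited scaling. The median over all genes was -0.18 under that scaling, and neither RPL37 nor RPS3 was called. No ribosome biogenesis gene was called by limma (7 at an unadjusted p under 0.05).

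**Figure D4:**
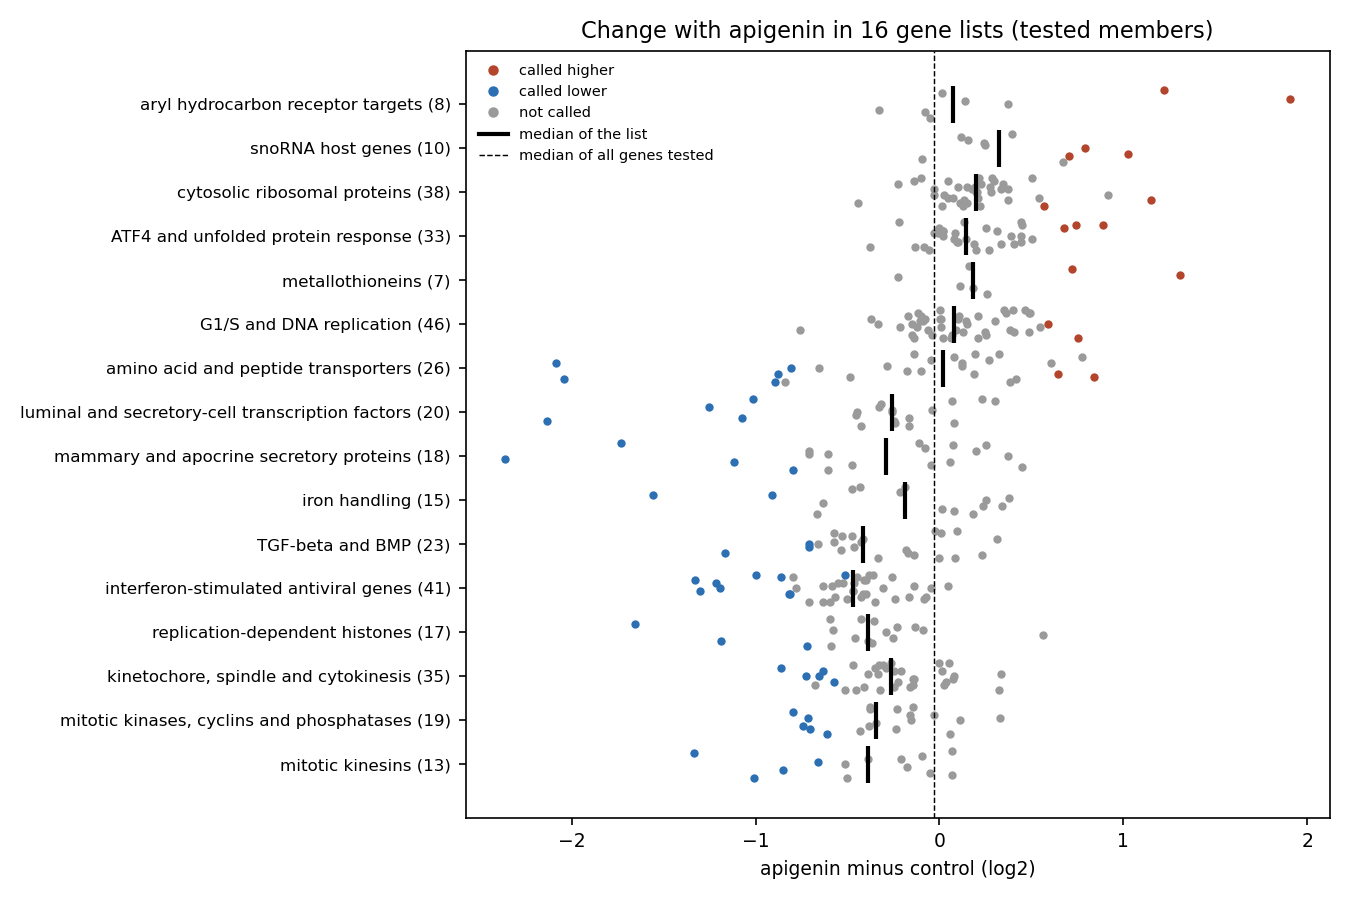
Each point is the log2 change (apigenin minus control, horizontal axis) of 1 tested gene in 16 gene lists (vertical axis, number tested in brackets), coloured where called. Black bars are list medians, and the dashed line is the median of all genes, -0.03. The medians run between -0.47, in the antiviral genes, and 0.32, in the small nucleolar RNA hosts.

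In signalling, EGFR was bright and was not called, with 10.65 and 10.70 in apigenin-treated cells, against 10.75, 10.69 and 10.78 in control cells (-0.06, adjusted p = 0.824). LRIG1, a membrane protein that promotes degradation of EGFR, was 1.70-fold lower (adjusted p = 0.0328, lost without any of the 5, p up to 0.13). Of 28 immediate early and MAPK feedback genes 1 rose and 3 fell. FOSL1, an AP-1 subunit, was 2.05-fold higher (adjusted p = 0.0326, lost without any of the 5 but apigenin 2, p up to 0.172). FOS, another subunit, was 1.99-fold lower (adjusted p = 0.014, lost without apigenin 1 or 2, p up to 0.0595). The MAPK phosphatase DUSP10 fell by 0.94 (adjusted p = 0.0135, lost without apigenin 2, p up to 0.0663), and DUSP4 by 0.62 (adjusted p = 0.0356, lost without any of the 5 but apigenin 2, p up to 0.171).

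Of 22 FOXO-responsive genes 3 fell (13.6%, beside 2.84% lower among all genes) and none rose, with a median of -0.24. BCL6, a transcriptional repressor, was 1.76-fold lower (adjusted p = 0.00813) and held. CITED2 was 1.72-fold lower (adjusted p = 0.0218, lost without apigenin 2 or control 1 or 3, p up to 0.092). PDK4, which turns off pyruvate dehydrogenase, changed by -1.02 near background (adjusted p = 0.0213, lost without apigenin 2 or control 1 or 3, p up to 0.0935). Of 23 TGF-beta and BMP genes 3 fell, with a median of -0.41. SMAD6, an inhibitory SMAD, changed by -1.17 near background (adjusted p = 0.00619, held), and TGFBR2, the type II receptor, was 1.64-fold lower (adjusted p = 0.026, lost without any of the 5, p up to 0.0854). No gene was called by limma in Wnt and Notch (23 tested, 3 at an unadjusted p under 0.05), fatty acid metabolism (23 tested, 5) or the proteasome (27 tested, 2). In 4 more lists 1 gene each was called: MVK in cholesterol synthesis (-0.77), ADM in hypoxia and glycolysis (0.85), SRRM2 in splicing (0.51) and BHLHE41 in the clock (-0.78). The call of MVK was lost without apigenin 2 or control 1 or 2, p up to 0.107. That of ADM was lost without apigenin 1 or control 1 or 2, p up to 0.126. That of SRRM2 was lost without any of the 5, p up to 0.132, and that of BHLHE41 was lost without apigenin 2 or control 1, p up to 0.0669.

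Several of the largest calls belong to none of the pathways above. TAF9B, a subunit of the general factor TFIID, was at 4.73 and 3.97, against 6.50, 6.13 and 6.31 in control cells, 3.90-fold lower (adjusted p = 0.00245). NRK, a kinase, was 3.21-fold lower (adjusted p = 0.00151), and GSDMC, a gasdermin, changed by -1.92 ± 0.18 (adjusted p = 0.000781) near background. All 3 held. Of the 15 largest rises, 10 were in genes with control means near background, among them the olfactory receptor OR4F5 (1.63), the lectin CLEC18A (1.57), the 5S ribosomal RNA copy RN5S305 (1.47) and the non-coding RNA MINCR (1.34). C16orf46 was 2.38-fold higher (adjusted p = 0.021), and BCO2, which cleaves carotenoids, 2.28-fold higher (adjusted p = 0.0215). RN5S305 held. OR4F5 did not pass the filter on dim genes without apigenin 1 or without apigenin 2, and its call was lost without control 1 or 3, p up to 0.0647. CLEC18A was lost without apigenin 1, p up to 0.0584. MINCR was lost without any of the 5, p up to 0.146, and BCO2 without any of the 5 but control 2, p up to 0.0831. C16orf46 was lost without apigenin 2, p up to 0.0999. Of 85 tested olfactory receptors 1 was called.

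The labelled cell type was checked against its markers. The 8 measured markers of an epithelial and basal-like breast line were EPCAM, CDH1, KRT8, KRT18, KRT19, KRT5, KRT14 and EGFR. Their mean level was 6.87 to 6.94 on the apigenin arrays, against 6.91 to 7.03 on the control arrays. None of the 7 tested was called by limma (0 at an unadjusted p under 0.05). Most are general epithelial markers, so the mean does not single out a basal-like line. ESR1 and PGR were near background, and KRT14, a basal keratin, was too. No level of ERBB2 is given here. Markers of macrophages averaged 3.12 on both apigenin arrays, against 3.00 to 3.24 on the control arrays, with CSF1R and CD68 not called. Those of T and B cells averaged 1.99 to 2.15, against 1.88 to 1.95, and none passed the filter on dim genes. Those of fibroblasts averaged 2.53 to 2.74, against 2.38 to 2.63. Those of endothelium averaged 2.25 to 2.39, against 2.80 to 2.94, and 2 of 4 were called lower, KDR (-1.26, adjusted p = 0.0127, lost without apigenin 2, p up to 0.067) and CDH5 (-1.02, adjusted p = 0.0172, lost without apigenin 2 or control 1, p up to 0.0817), while VWF and TEK lay below 2.53 on all 5 arrays. The part of these markers in the decreases above was not tested.

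TNF plus apigenin against TNF alone shares no array with apigenin against control. Both came from the same fit, however, with a shared variance, quantile normalization and filter, so they are not fully independent. TNF plus apigenin against TNF called 510 genes (3.22%), 174 higher (1.1%) and 336 lower (2.12%). Of these, 202 were called in the same direction in both comparisons, 40 higher and 162 lower, which is 33.9% of the apigenin calls and 39.6% of the calls in the presence of TNF, and none was called in opposite directions. Of the 595 apigenin calls 542 (91.1%) had the same sign with TNF, and the same share over all genes is not given here. The higher calls had a median change of 0.39 with TNF, against 0.80 without, and the lower calls one of -0.49, against -0.86, where the calls had been chosen on the change without TNF. Across all 15832 genes, which are not independent, Pearson's r of the 2 changes was 0.487.

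SPDEF (-1.55), PLEKHS1 (-1.67), MUC1 (-1.67), CP (-1.21), FN1 (-1.09), HSPB1 (-1.01) and TNFSF10 (-1.14) were called lower with TNF as well. CLCA2 (0.06, adjusted p = 0.919) and SCGB2A2 (0.50, adjusted p = 0.249) were not. Over the 47 luminal, secretory and mucin genes 6 were lower with TNF, 4 of them among the 9, and 3 were higher, and the median of the secretory proteins was 0.003. In the 3 mitosis lists 1 member was higher and 10 were lower with TNF, 9 of them among the 14, with KIF20A at -1.39 and PLK1 at -0.88, and the list median was -0.25. Of the antiviral genes 10 were lower with TNF, 6 of them among the 9, with IFI44L at -2.03. In G1/S and DNA replication 6 genes were higher with TNF, among them both called without it. MT1F (1.45), FOSL1 (1.58) and LIF (1.28) were higher in both.

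CYP1A1 (-0.05, adjusted p = 0.945) and CYP1B1 (0.03, adjusted p = 0.953) were not called with TNF. The difference between the comparisons was -1.96 for CYP1A1 (adjusted p = 0.155) and -1.19 for CYP1B1 (adjusted p = 0.173) and missed the threshold. The 95% interval of the CYP1A1 change lay between -0.57 and 0.47 with TNF and between 1.33 and 2.49 without. In the test of the difference over all genes 7 were called (0.0442%). SLC15A2 (1.56), GBP2 (1.57) and STAC2 (1.45) fell without TNF and had -0.52, -0.43 and 0.24 with it, PRM2 (-1.65) rose without TNF and had -0.40 with it, and CXCL10 (-2.05), MMP13 (-1.76) and C3 (-1.60) fell with TNF and were not called without it. With a replicate block none of the 7 was called, with adjusted p between 0.059 and 0.105. The number called here was 2 without control 1, 21 without apigenin 2 and 0 without control 2, control 3, apigenin 1, TNF 2, TNF 3 or any of the TNF plus apigenin arrays. At an unadjusted p under 0.05 there were 1090 genes with all arrays, and between 897 and 1719 with 1 array left out.

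**Figure D5:**
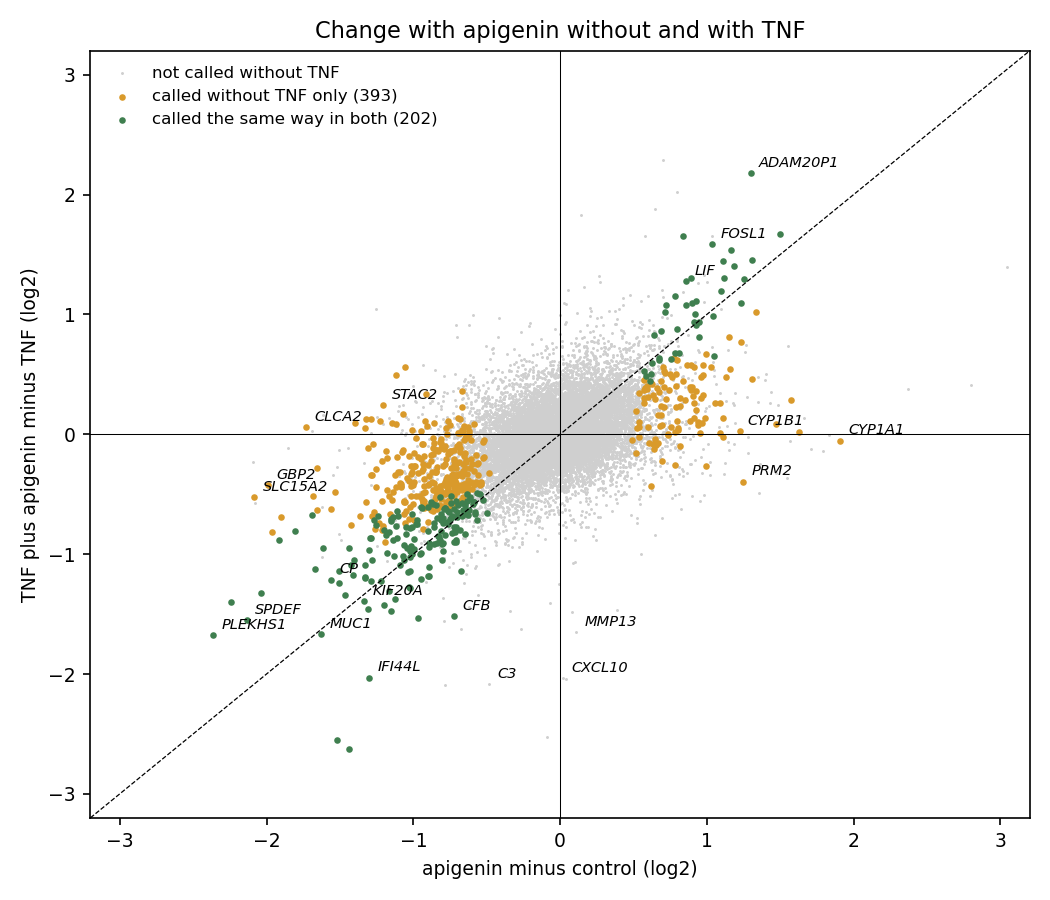
Each point is 1 of the 15832 genes tested, with the log2 change apigenin minus control on the horizontal axis and TNF plus apigenin minus TNF on the vertical axis. Green marks the 202 genes called the same way in both and amber the 393 called without TNF only, and the dashed line marks equal changes. CYP1A1 and CYP1B1 lie near 0 on the vertical axis, and PLEKHS1, SPDEF and MUC1 lie far to the lower left.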

How the data were processed

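Total RNA of MDA-MB-468 cells was measured on whole-transcript gene arrays, 11 in all. The deposited series table holds 1 log2 value per probe set and array, and the submitters' processing notes name Affymetrix Expression Console as the tool. The version, summary algorithm and annotation were not given in the sources used here. Base 2 was inferred because the deposited values span 0.38 to 12.31. Arrays give no counts, so precision is limited by the number of arrays.

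Of 53617 probe sets, 23871 carried 1 gene symbol in the platform annotation, 1842 several and 27904 none. Of those with 1 symbol, 22569 matched RefSeq, and 90 symbols were updated. A gene with several probe sets (632 of 22395) was represented by the brightest of them. Values were quantile-normalized, and genes were kept that reached 2.53 (the median of all probe set means) on at least 2 arrays. All 11 arrays were fitted with limma 3.58.1 in R 4.3.3 with 1 mean per group and 7 residual degrees of freedom. Benjamini-Hochberg adjustment ran over the tested genes, and calls had an adjusted p under 0.05. The difference between the apigenin changes with and without TNF was an interaction contrast of the same fit. The pipeline was tested on simulated data.

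Samples were grouped by their labels. The genes named were the 15 highest and 15 lowest called genes whose groups did not overlap and whose higher group mean exceeded that median by at least 1, up to 8 called members of each list (the 2 with the lowest p where none was called), the genes that anchor a list, and the 5 highest and 5 lowest differences of the interaction. Genes named outside this rule were chosen after their values were seen. The members and the 66 gene lists were chosen with earlier results of these data known. Promoters are the RefSeq windows of GRCh38.p14. Whether equal replicate numbers pair the arrays was left undecided, and a replicate block was fitted as an alternative. Alternatives covered the scaling, the filter, the probe set rule, array weights, the variance prior, a replicate block, the 5 arrays alone and each array left out. 2 more, a median shift over tested genes and a fit without control 2 and apigenin 1, were added after seeing the data.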

Additional observations from a re-analysis of the deposited data

Results flagged for a closer look

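In 7 genes the apigenin change with TNF differed from that without TNF in limma's interaction test with all arrays. No interaction was called with a replicate block, where these 7 had adjusted p between 0.059 and 0.105, nor in 8 of the 11 fits that left out 1 array, and each of the 7 was lost in 8 to 11 of those fits. The differences given here are the change with TNF (TNF plus apigenin minus TNF) minus the change without it (apigenin minus control). CXCL10, a chemokine, differed by -2.05 (adjusted p = 0.0267), with a change of -2.03 with TNF and of 0.02 without. MMP13, a collagenase, differed by -1.76 (adjusted p = 0.0267), with -1.65 with TNF and 0.11 without. C3, the central complement component, differed by -1.60 (adjusted p = 0.0289), with -2.09 with TNF and -0.48 without. PRM2, a sperm nuclear protein, differed by -1.65 (adjusted p = 0.0289), with -0.40 and 1.25.

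In the other 3 genes the change was the higher one with TNF. SLC15A2 differed by 1.56 (adjusted p = 0.0267), with -0.52 with TNF and -2.08 without. GBP2 differed by 1.57 (adjusted p = 0.0289), with -0.43 and -1.99, and STAC2 by 1.45 (adjusted p = 0.0289), with 0.24 and -1.21.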

How the results depend on the processing

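Of the 128 called genes named, none changed sign under any alternative in which it was tested. For the fits that left out 1 array this was nearly fixed in advance, since the apigenin and control arrays overlapped in no called gene. The call was lost in 27 with the deposited scaling, in 65 with array weights and in 103 in the fit of the 5 arrays alone. For apigenin against control (595 calls, 146 higher and 449 lower), the calls numbered 240 with array weights (30 higher, 210 lower), 52 with the 5 arrays alone (5 and 47) and 217 without control 2 and apigenin 1 (38 and 179). Higher calls numbered 35 with the deposited scaling, 38 with a median shift, which gave 691 lower calls, and 239 with a trended and robust prior. With 1 array left out there were 223 to 601 calls, 43 to 150 higher and 180 to 451 lower. For TNF plus apigenin against TNF (510 calls, 174 and 336), there were 169 with the deposited scaling (61 and 108), 215 with a median shift (80 and 135), 978 with array weights (369 and 609) and 810 with the trended prior (311 higher), and 186 to 582 with 1 array left out (59 to 203 and 127 to 379). For the interaction (7 calls, 3 and 4), there were 4 with the deposited scaling (2 lower), 14 with the trended prior (7 and 7), 12 with a median shift over tested genes (9 lower), and 2 lower with a median shift or array weights. With 1 array left out there were 0 to 21 (0 to 5 and 0 to 16), with 897 to 1719 genes at an unadjusted p under 0.05 in limma. Without control 2 and apigenin 1 limma called 0 interactions (0 higher, 0 lower), with 1264 at an unadjusted p under 0.05. The cause of these shifts was not tested.

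Whether the replicate numbers pair the arrays could not be settled. Correlations of same-numbered deviations ran between -0.19 and 0.28, and those of differently numbered ones between -0.39 and 0.24. The highest of all was between control 3 and TNF 3. With a replicate block there were 486 calls for apigenin against control (114 and 372) and 477 for TNF plus apigenin against TNF. For the interaction limma called 0 genes (0 higher, 0 lower) with the block, with 1156 at an unadjusted p under 0.05.

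With 2 apigenin arrays, leaving out 1 also lowers the precision, so a lost call need not rest on that array. The change of TMPO was -0.71 without apigenin 1 and -0.71 without apigenin 2. That of KIF14 was -0.53 without apigenin 1 and -1.16 without apigenin 2. Of the named calls that could be fitted, 64 of 127 were lost without apigenin 1 and 75 of 127 without apigenin 2. Treatment and any culture, extraction or array batch cannot be told apart where no label gives one.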

Other observations

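Genes of retinoid metabolism and response had 7 lower and 1 higher call among 21 tested genes, of 31 listed. Among all genes 2.84% were lower and 0.922% higher. The list was put together after the values were seen, so it was not tested as a list. For the same reason its counts cannot be weighed against those shares. The retinol dehydrogenase RDH10 changed by -1.41, the retinaldehyde dehydrogenase ALDH1A1 by -0.92, the retinol-binding protein receptor STRA6 by -0.80 and DHRS3, which reduces retinaldehyde to retinol, by -0.62. The retinoid-responsive genes PLAAT4 and RARRES1 changed by -1.66 and -0.59, and HSD17B2 by -1.67. BCO2 changed by 1.19. The calls of HSD17B2, PLAAT4, RDH10 and STRA6 held in each fit with 1 array left out. ALDH1A1 was lost without apigenin 2 or any control array (adjusted p up to 0.135), DHRS3 and RARRES1 without any of the 5 arrays (up to 0.13 and 0.136), and BCO2 without any of the 5 but control 2 (up to 0.0831). The list's median was -0.24, and -0.19 for the change with TNF.

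KYNU and KMO, enzymes of tryptophan breakdown through kynurenine, were also chosen after their values were seen. KYNU was at 6.56 and 6.22 in apigenin-treated cells, against 7.58, 7.48 and 7.45 in control cells, a log2 change of -1.11 (limma adjusted p = 0.00313) that held in each such fit. KMO was at 3.48 and 2.67, against 5.08, 3.73 and 4.96, a log2 change of -1.52 (limma adjusted p = 0.0356) that was lost without apigenin 2, control 1 or control 3 and in 5 of the 6 fits without an array of TNF-treated cells (adjusted p up to 0.167).

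Small nucleolar RNAs varied between arrays of 1 group, with control 2 the highest and apigenin 2 the lowest of the 5. The array median over 130 tested ones was 5.91 and 4.95 on the apigenin arrays, against 5.59, 6.998 and 5.70 on the control arrays, and 1 was called lower. Over 15 spliceosomal small nuclear RNAs the medians were 6.40 and 4.46 on the apigenin arrays, against 6.46, 8.14 and 6.12 on the control arrays.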
